A study of Mus musculus with 21 samples.

Results

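The nuclear genes for the subunits of the mitochondrial respiratory chain and the ATP synthase were followed in mouse mammary tumours that had been given a PI3K alpha inhibitor or its vehicle. They were taken by symbol, as Nduf genes of the a, b, c, s and v series for complex I, Sdha to Sdhd for complex II, Uqcr genes for complex III, Cox4 to Cox8 genes for complex IV and Atp5 genes for complex V. Pseudogene symbols were left out. This gave 84 of the 24028 genes of the count table, of which 37 fall under complex I, 4 under complex II, 8 under complex III, 18 under complex IV and 17 under complex V. A filter on low counts kept 82 of the 84 and 15792 genes in all. The 2 that were not tested were Cox7b2 and Cox8c, testis-type paralogues with a total over all tumours of 0 counts and 1 count.

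The tumours came from WAP-Cre/PIK3CA-H1047R mice, in which the promoter of a milk protein drives Cre in the secretory mammary epithelium and the mutant PIK3CA is made there. All 21 tumours carried these alleles. Of them, 7 were from animals given DMSO (vehicle), 7 were labelled relapse under BYL719 (alpelisib, a PI3K alpha inhibitor) and 7 were labelled stable under BYL719. The series text calls the first of the treated groups responding and not relapse, and the labels give neither the length of treatment nor the age of the animals. The titles carry 12 codes whose meaning is not given; vehicle tumours carry 3 of them, relapsed tumours 7 and stable tumours 4, and 2 codes occur in both treated groups. No 2 relapsed tumours share a code. If a code stands for an animal, tumours within the vehicle group and within the stable group are not independent, and the p-values measure only the spread between these tumours. The 2 codes found in both treated groups would then also tie relapsed to stable tumours. The main fit of relapse minus stable leaves such ties out of account. Depth was 13337848 to 24873844 counts per tumour, and the subunit genes took 0.306% to 0.674% of them. The summed level of 11 luminal epithelial markers was 2293 to 16050 CPM (counts scaled to library size), so these markers were present in every tumour. Vehicle 2, 6 and 7 had summed basal and myoepithelial markers of 17690, 23520 and 10820 CPM, against 1279 to 5733 CPM in the other vehicle tumours.

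Complex I takes electrons from NADH and complex II takes them from succinate; ubiquinone carries them to complex III and cytochrome c carries them on to complex IV, which reduces oxygen. Complexes I, III and IV pump protons, and complex V, the ATP synthase, lets them back to make ATP. Most subunits are encoded in the nucleus and are made in nearly every cell. A few complex IV subunits come instead in paralogue pairs, with one copy made widely and the other mainly in striated muscle or brown fat. The symbols do not follow the complexes exactly: Ndufa4 is now counted as a complex IV subunit, and Atp5s and Atp5sl are not subunits of the ATP synthase proper. The subunits encoded in mitochondrial DNA were not analysed here.

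Levels were set per base of gene model, as CPM divided by the gene length given with the counts, in kilobases (RPKM, median over the 21 tumours). The most abundant members were subunits of the ATP synthase, the catalytic Atp5b at 232 RPKM and Atp5a1 at 216 RPKM. The highest level was 149 RPKM in complex IV (Cox6b1, which helps hold the dimer), 142 RPKM in complex III (Uqcrh, the hinge protein beside cytochrome c1), 109 RPKM in complex I (Ndufa6) and 78.8 RPKM in complex II (Sdha, the flavoprotein that oxidises succinate). The median member was at 33.2 RPKM in complex I, 45.9 RPKM in complex II, 41.5 RPKM in complex III, 25.5 RPKM in complex IV and 54.6 RPKM in complex V. The muscle-type paralogues lay far lower, with Cox7a1 at 3.98 RPKM, Cox8b at 3.17 RPKM and Cox6a2 at 0.857 RPKM.

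Promoter sequence was held for 69 of the 84 members, in 75 windows that run from 250 bases before the annotated start to 50 after it (RefSeq, GRCm38.p6). The letters of the NRF1 motif (GCGC, any base, TGCGC) were found on either strand in 24.0% of the members' windows and in 4.6% of all 32851 windows. The core of the GABPA motif (CCGGAAG) was in 21.3% against 8.86%, the YY1 motif (AANATGGCG) in 16.0% against 2.38%, and the ESRRA motif (TCAAGGTCA) in 2.67% against 0.423%. The muscle-type E-box CAGCTG went the other way, at 8% against 16.3%, TATAAA was in 10.7% against 13.6%, and MEF2 letters were in none of the members' windows against 0.557%. CAGCTG is its own reverse complement, and the NRF1 letters farther from the start of Cox6a1 were read on both strands. A match is a description of letters and not of binding. The 250 bases before the start are shown for members that the comparisons turn on and for Cox6a1, the widely made partner of Cox6a2, with the letters of any of these motifs in capitals. Cox7a1 and Ndufv3 had none of them, Cox8b and Ndufb10 had the E-box 19 and 18 bases before the start, and Cox6a1 had NRF1 letters at 162 and 117 bases and GABPA letters at 16 bases before it. Atp5e had GABPA letters at 102 bases before the start.
Cox7a1, chr7:30183921-30184170, plus strand: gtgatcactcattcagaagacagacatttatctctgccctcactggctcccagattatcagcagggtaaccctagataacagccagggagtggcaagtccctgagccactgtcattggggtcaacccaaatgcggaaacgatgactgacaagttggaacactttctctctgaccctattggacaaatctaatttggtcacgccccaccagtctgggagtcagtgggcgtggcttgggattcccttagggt
Cox8b, chr7:140900447-140900696, minus strand: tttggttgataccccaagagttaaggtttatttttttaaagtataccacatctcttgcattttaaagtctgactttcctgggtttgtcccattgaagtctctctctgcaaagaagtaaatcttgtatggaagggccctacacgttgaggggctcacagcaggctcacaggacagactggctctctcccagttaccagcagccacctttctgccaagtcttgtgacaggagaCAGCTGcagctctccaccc
Cox6a1, chr5:115348959-115349208, minus strand: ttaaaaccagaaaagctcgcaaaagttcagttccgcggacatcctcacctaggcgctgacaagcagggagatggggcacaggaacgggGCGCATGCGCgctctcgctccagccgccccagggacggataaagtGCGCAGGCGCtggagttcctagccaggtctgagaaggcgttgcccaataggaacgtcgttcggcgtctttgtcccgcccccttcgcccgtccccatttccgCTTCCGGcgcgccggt
Ndufb10, chr17:24724424-24724673, minus strand: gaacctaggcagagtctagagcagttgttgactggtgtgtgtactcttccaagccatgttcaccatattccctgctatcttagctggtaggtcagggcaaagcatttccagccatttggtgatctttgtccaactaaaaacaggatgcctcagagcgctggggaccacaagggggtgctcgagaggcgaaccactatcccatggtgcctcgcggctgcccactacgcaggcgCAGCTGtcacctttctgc
Ndufv3, chr17:31519865-31520114, plus strand: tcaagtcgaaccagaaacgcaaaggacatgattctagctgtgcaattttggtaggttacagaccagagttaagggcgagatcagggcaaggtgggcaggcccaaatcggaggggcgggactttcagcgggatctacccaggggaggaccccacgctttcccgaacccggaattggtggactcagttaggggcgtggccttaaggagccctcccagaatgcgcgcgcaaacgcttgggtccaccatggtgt
Atp5e, chr2:174464102-174464351, minus strand: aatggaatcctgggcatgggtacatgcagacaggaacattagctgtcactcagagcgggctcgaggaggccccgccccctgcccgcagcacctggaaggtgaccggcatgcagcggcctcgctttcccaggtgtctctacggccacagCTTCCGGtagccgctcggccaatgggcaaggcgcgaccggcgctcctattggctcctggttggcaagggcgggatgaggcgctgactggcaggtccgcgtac

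The first comparison asked how relapsed tumours differed from vehicle tumours. The muscle-type complex IV subunits Cox6a2, Cox7a1 and Cox8b rose by 2.25 to 5.50 on the log2 scale, the epsilon subunit of the ATP synthase, Atp5e, rose slightly, and Ndufa4l2 and Ndufb10 of complex I fell. The other 76 tested members did not pass the test. Of 82 members, 6 passed (4 higher, 2 lower) by edgeR's quasi-likelihood test at an adjusted p under 0.05. Of the 15792 tested genes 11.2% passed (5.42% higher and 5.80% lower), and these shares were not tested against each other. The median log2 fold change was -0.08 over members and -0.02 over all genes tested, and by complex it was -0.10 for I, 0.03 for II, -0.04 for III, 0.02 for IV and -0.09 for V. Over all genes 856 rose and 916 fell, and with upper-quartile scaling 953 rose and 673 fell (6.03% and 4.26%), where 5 members rose and 1 fell. For 70 of the 82 members the 95% interval of the fold change lay within 2-fold in either direction. No member had all relapsed tumours above, or all below, the vehicle tumours, which held for 1.53% and 1.48% of all genes.

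**Figure D1:**
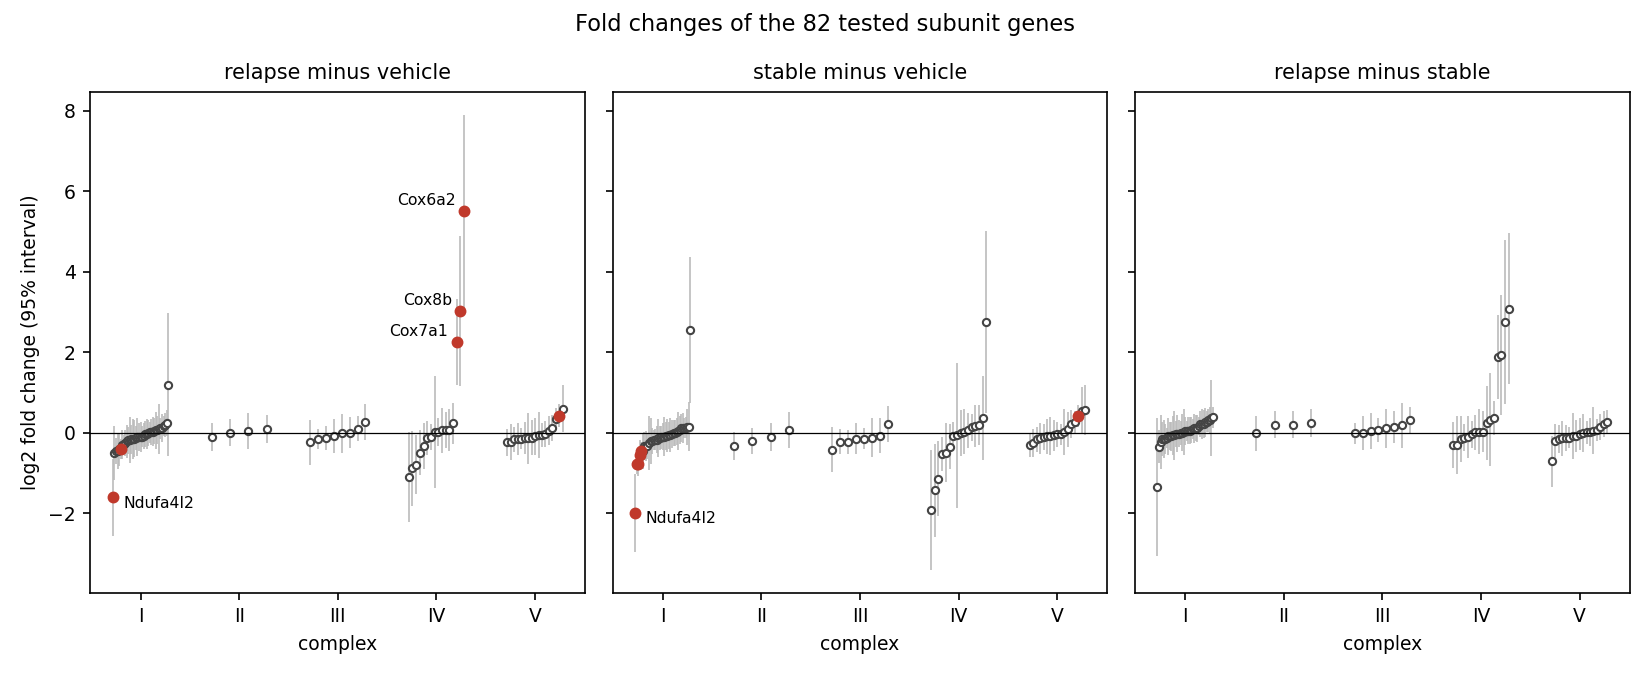
Log2 fold change of each of the 82 tested subunit genes by complex, with its 95% interval, in the 3 comparisons; filled red points passed edgeR's test at an adjusted p under 0.05 and open points did not. The members of complexes II and III sit close to 0 in each panel, while Cox6a2, Cox7a1 and Cox8b stand above the rest of complex IV in relapse minus vehicle.

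Cox6a2 (chr7:128205435-128206366, GRCm38) encodes the muscle-type subunit VIa. It was at 0 CPM in vehicle 2, 6 and 7, with a vehicle median of 0.0457 CPM and a highest value of 0.687 CPM. In relapsed tumours it ran from 0 CPM in relapse 4 through a median of 4.36 CPM to 16.8 CPM in relapse 1. The other 6 relapsed tumours all lay above every vehicle tumour, and relapse 4 lay with the lowest. Its log2 fold change was 5.50 ± 1.15 (SE), with an edgeR adjusted p of 0.00673. Without vehicle 2, 6 and 7 the difference was 4.73 and the adjusted p was 0.0566. Summing counts by title code gave an adjusted p of 0.0503, and title codes as a random effect gave 0.0720. On the opposite strand, Itgad overlaps 10.3% of the exon bases of Cox6a2, and no source used here gives the strand setting of the counting.

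Cox7a1 (chr7:30184171-30186030) encodes the muscle- and brown-fat-type subunit VIIa. Vehicle tumours ran from 0.533 to 1.46 CPM with a median of 1.15 CPM, and relapsed tumours from 0.698 to 14.9 CPM with a median of 3.01 CPM. Relapse 1 and 7, at 14.9 and 10.9 CPM, stood well above the others, and relapse 4 lay within the vehicle range. On the log2 scale the difference was 2.25 ± 0.51 (edgeR adjusted p = 0.00891); without vehicle 2, 6 and 7 it was 2.14 with an adjusted p of 0.0725. The call was also lost with summing by title code (0.116), with codes as a random effect (0.0759) and with the replicate number as a term (1.84, 0.0560).

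Cox8b (chr7:140898942-140900446) encodes the muscle- and brown-fat-type subunit VIII. It ran from 0.183 to 2.46 CPM in vehicle tumours (median 0.435) and from 0.0499 to 24.3 CPM in relapsed tumours (median 2.44). The groups overlapped, and only relapse 1, 7 and 5, at 24.3, 16.1 and 5.71 CPM, were above the highest vehicle tumour. The log2 fold change was 3.02 ± 0.89 (edgeR adjusted p = 0.0340), and without vehicle 2, 6 and 7 it was 3.22 with an adjusted p of 0.123. Summing by title code gave 0.177, codes as a random effect 0.200 and the replicate number as a term 2.48 (0.216). The call was lost without vehicle 1, 4, 5, 6 or 7 or without relapse 1 or 7, left out 1 at a time, at adjusted p 0.0505 to 0.0901.

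The widely made partners of these 3 genes did not pass the test: the log2 fold change was -0.13 for Cox6a1 (edgeR adjusted p = 0.716), -0.32 for Cox7a2 (0.487) and 0.07 for Cox8a (0.866). Each was also set against its partner per base of gene model. Cox6a2 made up a median of 0.193% of its pair with Cox6a1 in vehicle tumours, 23.3% in relapsed tumours and 2.65% in stable tumours. Its highest share was 43.0%, in a relapsed tumour. Cox7a1 made up 9.38%, 28.7% and 12.3% of its pair with Cox7a2 in the same order. Cox8b made up 2.30%, 12.2% and 1.77% of its pair with Cox8a. In the remaining pairs the minor copy stayed a small part in most tumours, with group medians of 0.473% to 0.886% for Cox4i2 and 0.397% to 0.873% for Cox6b2.

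Skeletal muscle markers and the brown fat marker Ucp1 were also higher in relapse. Of 18 skeletal muscle markers, 16 rose in relapsed tumours (median log2 fold change 4.86), and 3 did without vehicle 2, 6 and 7. Their summed level was 223 to 585 CPM in vehicle tumours (median 300), 194 to 8309 CPM in relapsed tumours (median 3020) and 237 to 4677 CPM in stable tumours (median 680). Ckm, Tnnc2, Myh7 and Ckmt2 each had 0 counts in 1 vehicle tumour, and no marker of the list was at 0 in a treated tumour. The summed level of 5 brown adipocyte markers was 29.8 to 429 CPM in vehicle, 38.1 to 391.6 CPM in relapsed and 44.8 to 97.5 CPM in stable tumours. By edgeR 1 of the 5 (Ucp1) rose in relapse, and none did without vehicle 2, 6 and 7. The list did not move in a single direction in relapse, since 1 of the 5, Elovl3, had a negative log2 fold change (-4.13). DESeq2 called Elovl3 (lower) as well as Ucp1 (higher) there. Ucp1 was at 0 in 1 vehicle tumour and Elovl3 in 1 stable tumour. Of 10 general adipocyte markers 2 rose in relapse (the lipases Lipe and Pnpla2), and none without vehicle 2, 6 and 7. Their summed level was 105 to 773 CPM in vehicle, 155 to 1243 CPM in relapsed and 146 to 720 CPM in stable tumours. In bulk tissue, a change in the number of cells of a type and a change in RNA per cell cannot be told apart.

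The muscle-type subunits did not share one order of tumours. The tumours with the most Cox6a2 were relapse 1, 2 and 3 (16.8, 12.3 and 11.02 CPM), stable 5 (4.58 CPM) and relapse 6 (4.36 CPM), which were also the 5 tumours with the most Ckm, the muscle creatine kinase (344, 206, 194, 143 and 108 CPM). Other muscle markers had other orders: Atp2a1 was highest in relapse 1, stable 5 and relapse 3 (564, 337 and 319 CPM), Ckmt2 in relapse 1, 6 and 2 (40.9, 16.3 and 14.1 CPM), and the summed muscle markers were higher in stable 5 (4677 CPM) than in relapse 3 (4438 CPM). Cox8b and Cox7a1 were instead highest in relapse 1, 7 and 5, the tumours with the most Ucp1, the uncoupling protein of brown fat (181, 95.1 and 52.7 CPM, with every other tumour at or below 10.4 CPM). Cidea, another brown fat marker, was second highest in vehicle 3 (87.4 CPM, after 91.1 CPM in relapse 7), and the summed brown adipocyte markers were highest in vehicle 3 (429 CPM), where Cox7a1 was at 1.04 CPM. Relapse 2, second for Cox6a2, had 2.10 CPM of Cox8b, inside the vehicle range. Ckm and Ucp1 were set beside the subunits after their values were seen, and the part of muscle and brown fat tissue in these results was not tested.

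**Figure D2:**
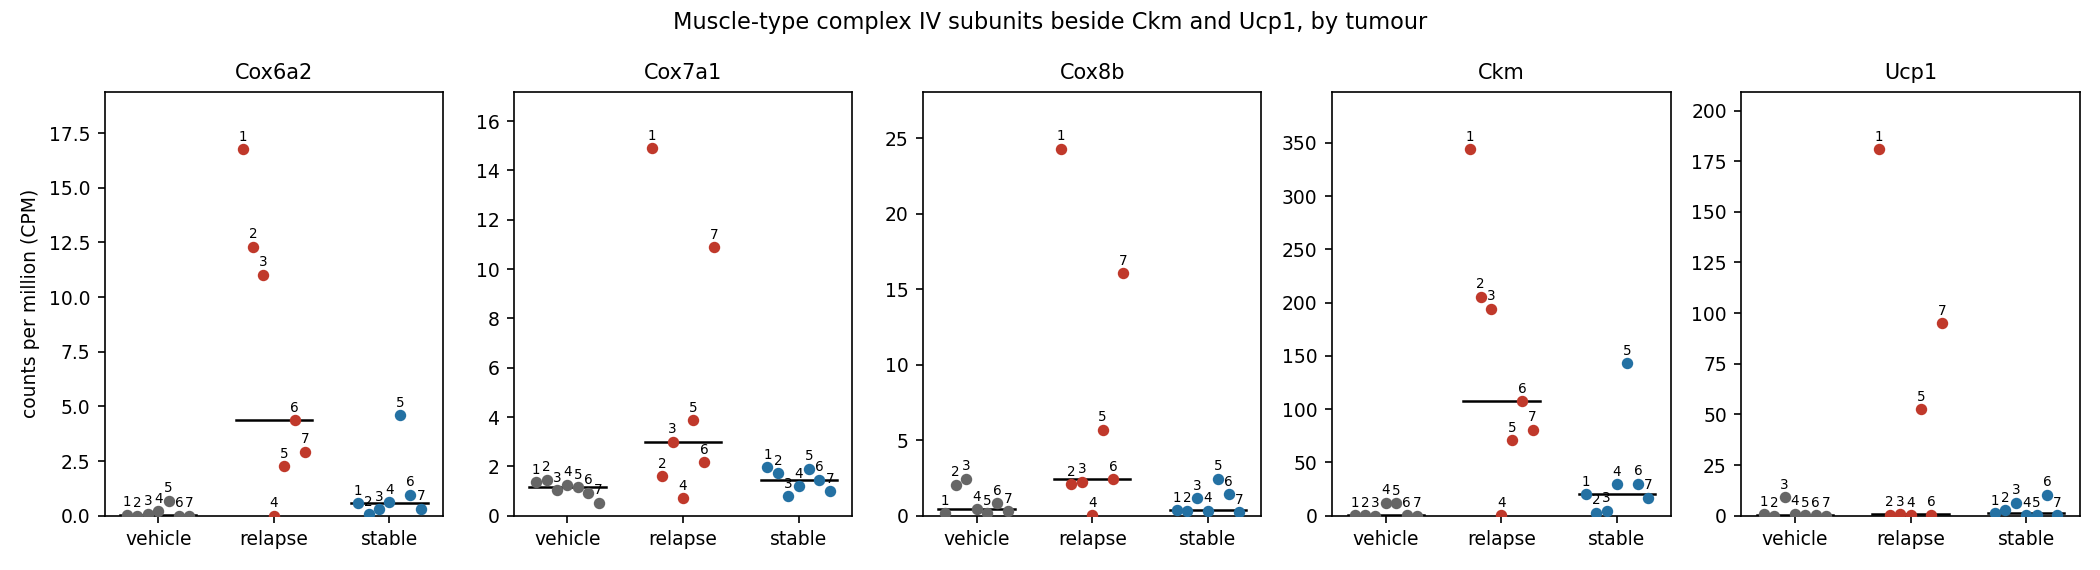
Level in CPM of Cox6a2, Cox7a1, Cox8b and the tissue markers Ckm and Ucp1 in each tumour; the number beside a point is the replicate, bars are group medians and each panel has its own axis from 0. Cox6a2 and Ckm are highest in relapse 1, 2 and 3, and Cox7a1, Cox8b and Ucp1 in relapse 1, 7 and 5.

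In complex II relapse 1 and 7 also stood apart, with no gene called. Sdha ran from 179 to 391 CPM in relapsed tumours, with relapse 7 at 391 and relapse 1 at 351 CPM, and from 207 to 287 CPM in vehicle tumours. The mean centred log2 level of complex II was 0.51 in relapse 1 and 0.50 in relapse 7, and -0.20 to 0.02 in the other relapsed tumours. None of the 4 genes passed the test (lowest edgeR adjusted p = 0.741, 0 at an unadjusted p under 0.05 and 0 by DESeq2), and their log2 fold changes were -0.09 to 0.10.

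Among complex I genes, Ndufa4l2 (chr10:127509274-127517154), a paralogue of Ndufa4 known as a hypoxia-induced gene, was lower in relapse. Vehicle tumours ran from 0.933 CPM (vehicle 6) to 15.0 CPM (vehicle 3) with a median of 4.88 CPM, and relapsed tumours from 1.03 to 4.44 CPM with a median of 1.92 CPM. All 7 relapsed tumours were below the vehicle median. Its log2 fold change was -1.60 ± 0.46 (edgeR adjusted p = 0.0286). Its partner Ndufa4 did not pass in any comparison. The call for Ndufa4l2 was lost without vehicle 3 or 7 or relapse 1, 3 or 7 at adjusted p 0.0529 to 0.0684, and without vehicle 2, 6 and 7 the difference was -1.79 with an adjusted p of 0.0340. Summing by title code gave -1.59 (0.0547) and codes as a random effect -1.33 (0.0960). On the opposite strand, Shmt2 overlaps 2.92% of its exon bases.

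Ndufb10 (chr17:24722060-24724423), an accessory subunit of the membrane arm, was at 55.2 to 95.3 CPM in vehicle tumours (median 69.2) and at 44.7 to 63.5 CPM in relapsed tumours (median 53.4). All 7 relapsed tumours lay below the vehicle median, and vehicle 1, 2 and 5 lay inside the relapsed range. On the log2 scale the difference was -0.39 ± 0.12 (edgeR adjusted p = 0.0419). The call was lost in 10 of 14 leave-one-out fits, those without vehicle 2, 3, 4, 6 or 7 or relapse 2, 3, 4, 5 or 6 (adjusted p 0.0516 to 0.0992), and without vehicle 2, 6 and 7 the difference was -0.27 (adjusted p = 0.229). The complex I genes next in order did not pass: Ndufv3 had a log2 fold change of -0.44 (adjusted p = 0.0620) and Ndufv2 of -0.28 (0.0960). Ndufv3 passed without vehicle 1, 3 or 5 (adjusted p 0.0359 to 0.0492) and Ndufv2 without vehicle 5 (0.0483).

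Atp5e (chr2:174461075-174464101), the epsilon subunit of the central stalk of the ATP synthase, rose in both treated groups. It was at 35.1 to 58.7 CPM in vehicle tumours (median 46.6), at 54.7 to 70.3 CPM in relapsed tumours (median 67.6) and at 48.7 to 89.0 CPM in stable tumours (median 60.2). Every one of the 14 treated tumours was above the vehicle median, and the groups overlapped. The log2 fold change was 0.43 ± 0.13 in relapse (edgeR adjusted p = 0.0447) and 0.41 ± 0.13 in stable tumours (0.0427), 2 values that share the vehicle tumours. With vehicle 2, 6 and 7 left out they were 0.36 (adjusted p = 0.163) and 0.35 (0.159). In relapse the call was lost without vehicle 1, 2, 4 or 6 or relapse 1, 3, 5, 6 or 7 (adjusted p 0.0584 to 0.118), and in stable tumours without vehicle 1, 2, 4 or 6 or stable 3, 4, 5 or 6 (0.0559 to 0.0989). The other 16 complex V genes did not pass in either comparison.

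The count of members that passed in relapse minus vehicle was 3 without vehicle 4, vehicle 6, relapse 1, relapse 3 or relapse 7, left out 1 at a time, where 13.0%, 7.28%, 8.89%, 7.70% and 9.24% of all genes passed. Without vehicle 2, 6 and 7 together it was 2 (Ndufa4l2 lower and Atp5sl higher, by -1.79 and 0.51), where 3.28% of all genes passed. With counts summed over tumours of a group that share a title code it was 0, where 5.87% of all genes passed. Of all genes, 13.1% passed with voom sample weights (3 members), 8.14% with the code as a random effect (Atp5e and Ndufb10), 10.6% with only the 2 groups fitted (3 members), 6.25% with the replicate number as a term (2 members) and 1.11% without vehicle 2, 6 and 7 with summing (1 member).

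The second comparison set stable tumours against vehicle tumours. The complex I genes Ndufb10, Ndufv3, Ndufv2, Ndufa4l2 and Ndufa13 fell, 5 of the 37 of complex I, which holds 37 of the 82 tested members, and Atp5e rose. No member of complexes II, III or IV passed edgeR's test; at an unadjusted p under 0.05 there were 0, 0 and 5, and DESeq2 called 0, 0 and 2 (Cox6a2 and Cox4i2). Of 82 members 1 rose and 5 fell, beside 15.1% of all tested genes (6.90% higher, 8.16% lower). The median log2 fold change was -0.08 over members and -0.00 over all genes (-0.09, -0.15, -0.14, -0.04 and -0.04 for complexes I to V), and 69 of 82 intervals lay within 2-fold. All 7 stable tumours lay below all vehicle tumours for 2 members, Ndufb10 and Ndufv3, a pattern seen in 1.30% of all genes, and for no member did all lie above (1.56%). Without vehicle 2, 6 and 7 the count was 3 (Ndufa4l2, Ndufb10 and Ndufv3, all lower), where 5.27% of all genes passed, and summing by code gave 1 beside 3.64%. Leaving those 3 tumours out and summing gave 0 beside 1.06%, voom sample weights gave 15 beside 19.0%, and the replicate number as a term gave 6 beside 7.92%. Both comparisons share the vehicle tumours.

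Ndufb10 was at 29.6 to 49.0 CPM in stable tumours with a median of 39.7 CPM, against the vehicle range of 55.2 to 95.3 CPM. The gap between the groups was from 49.0 CPM in stable 7 to 55.2 CPM in vehicle 5. Its log2 fold change was -0.78 ± 0.12 (edgeR adjusted p = 0.000723). It was -0.65 without vehicle 2, 6 and 7 (adjusted p = 0.00740), -0.75 after summing by title code (0.0290) and -0.66 after both (0.0702). It passed in every leave-one-out fit.

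Ndufv3 (chr17:31520115-31531326), an accessory subunit of the NADH-binding arm, was at 50.2 to 109 CPM in vehicle tumours (median 61.6), 36.6 to 56.0 CPM in relapsed tumours (median 53.5) and 31.9 to 49.5 CPM in stable tumours (median 38.4). Vehicle 7, at 109 CPM, was the highest of the 21 tumours. The log2 fold change in stable tumours was -0.76 ± 0.15 (edgeR adjusted p = 0.00379). With vehicle 2, 6 and 7 left out it was -0.49 (adjusted p = 0.0380), and after summing by title code -0.69 (0.0554), and after both -0.51 (0.139).

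Ndufv2 (chr17:66078795-66101559) encodes an iron-sulphur subunit of the same arm of complex I. It was at 91.2 to 141 CPM in vehicle tumours (median 112) and at 63.9 to 93.2 CPM in stable tumours (median 86.4), with vehicle 5 and stable 7 overlapping. On the log2 scale the difference was -0.45 ± 0.11 (edgeR adjusted p = 0.00957). Without vehicle 2, 6 and 7 it was -0.34 and no longer passed (adjusted p = 0.0939), nor did it with summing by title code (-0.45, 0.103). The call was kept with the code as a random effect (-0.45, limma voom adjusted p = 0.00969). It was kept in 8 of 11 alternatives of this kind and in all 14 leave-one-out fits. Ndufb10, Ndufv3 and Ndufv2 all lie on chromosome 17, together with Ndufa7, Ndufa11 and Cox7a2l. The other genes of chromosome 17 had a median log2 fold change of -0.00 in this comparison, and 6.01% of them passed as lower.

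Ndufa4l2 was at 0.894 to 2.81 CPM in stable tumours with a median of 1.48 CPM, and all 7 lay below the vehicle median of 4.88 CPM. The log2 fold change was -1.98 ± 0.46 (edgeR adjusted p = 0.00968). With vehicle 2, 6 and 7 left out it was -2.16 (adjusted p = 0.00790), with summing by title code -1.90 (0.0614) and with both -1.94 (0.0823). Per base of gene model, Ndufa4l2 made up a median of 4.65% of its pair with Ndufa4 in vehicle tumours, 2.86% in relapsed and 1.94% in stable tumours.

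Ndufa13 (chr8:69894163-69902558), an accessory subunit also called GRIM-19, was at 33.7 to 56.0 CPM in vehicle tumours (median 38.4) and at 21.7 to 48.0 CPM in stable tumours (median 26.2). Stable 1, at 48.0 CPM, lay inside the upper vehicle range and the other 6 stable tumours at or below 33.3 CPM. Its log2 fold change was -0.55 ± 0.17 (edgeR adjusted p = 0.0391). The call was lost without vehicle 2, 6 or 7 or without any 1 of stable 2 to 7 (adjusted p 0.0557 to 0.124), and without vehicle 2, 6 and 7 together the difference was -0.26 (adjusted p = 0.434). The value is uncertain, since Tssk6 on the opposite strand overlaps 30.0% of the exon bases of Ndufa13 and no source used here gives the strand setting of the counting.

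**Figure D3:**
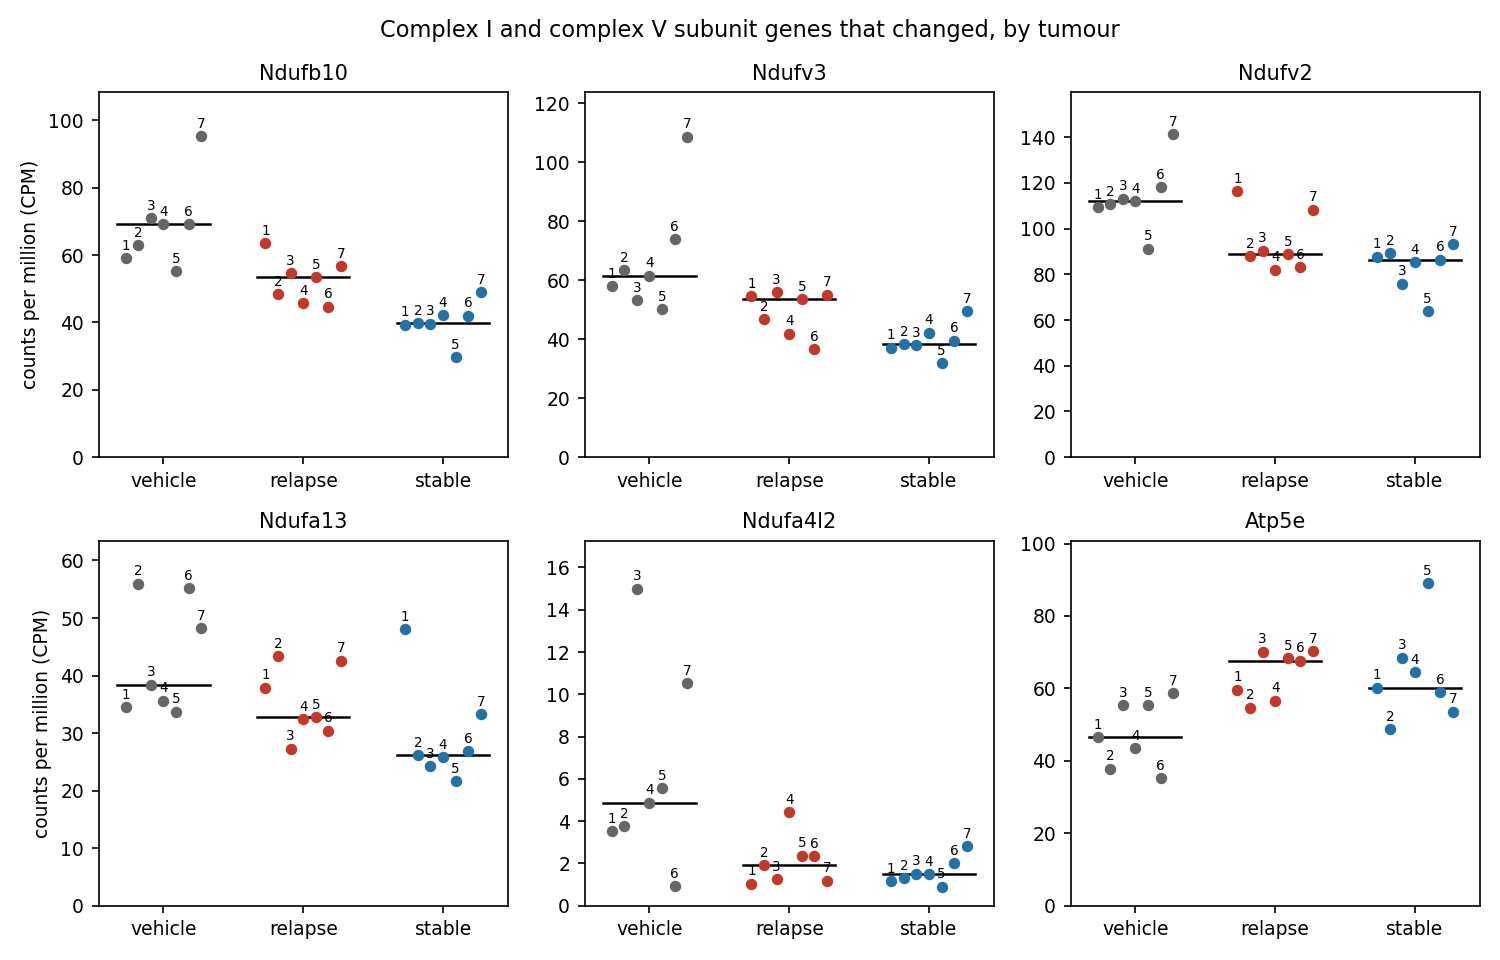
Level in CPM of the 5 complex I genes and the complex V gene Atp5e that passed the test against vehicle tumours, by tumour; the number beside a point is the replicate, bars are group medians and axes start at 0. Stable tumours lie below all vehicle tumours for Ndufb10 and Ndufv3, and 1 stable tumour (stable 1) stands above the rest for Ndufa13.

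Some members with large differences did not pass. Ndufs5, an accessory complex I subunit, had a log2 difference of 2.54 (edgeR adjusted p = 0.0523) with stable 1 at 9.86, stable 6 at 4.68 and stable 5 at 2.85 CPM, against a vehicle range of 0.229 to 0.700 CPM. It shares 21.7% of its 50-base stretches with BC002163, so its counts are uncertain, and it passed without stable 2, 4 or 7 (adjusted p 0.0439 to 0.0470) and was 1.69 without stable 1. Cox6a2 had a difference of 2.75 (0.0892), with stable 5 at 4.58 CPM and the other stable tumours at 0.0538 to 0.955 CPM, and passed without vehicle 5 (3.97, adjusted p = 0.0318). Atp5sl had 0.27 (0.167), and passed without vehicle 7 (0.42, 0.0381). In complex IV the lung-type paralogue Cox4i2 had -1.92 (0.0741) and the testis-type Cox6b2 had -1.43 (0.0837), the latter passing without vehicle 1 (-1.63, 0.0360).

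Of the 18 skeletal muscle markers, 8 rose in stable tumours (median log2 fold change 2.91), with 0 without vehicle 2, 6 and 7 (2.48), and Cox7a1 and Cox8b did not pass there. Cox7a1 was at 0.790 to 1.96 CPM in stable tumours (log2 difference 0.37, edgeR adjusted p = 0.644). Cox8b was at 0.234 to 2.46 CPM, close to the vehicle span of 0.183 to 2.46 CPM.

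Stable 1 and stable 5 lay at opposite ends for most members. Stable 1 had the highest level of the 21 tumours for 45 of 82 members (54.9%), against 21.04% of all genes, and stable 5 had the lowest for 46 (56.1%), against 10.2% of all genes. Set against the median of the other stable tumours, stable 1 was higher for 71 of 82 members, with a median log2 difference of 0.73, and by over 1 for 20. Over 10783 well-expressed genes the median of that difference was 0.03, 51.2% were higher and 11.9% were higher by over 1. Without stable 1, 19 of 82 members passed in stable minus vehicle (18 lower, 1 higher), where 20.6% of all genes passed (9.03% higher, 11.5% lower). Among those 19 were Cox5b (-1.50, edgeR adjusted p = 0.0219), Cox6c (-1.02, 0.0112) and Cox6a1 (-0.62, 0.0354), which did not pass with it. Vehicle tumours weighed on the first 2 as well. With stable 1 kept, the difference was -0.24 for Cox5b without vehicle 7 and -0.26 for Cox6c without vehicle 2.

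Stable 1 also had shifts over whole chromosomes. The median centred log2 level of its genes was 0.72 on chromosome 15, 0.37 on chromosome 2 and -0.57 on chromosome 14, which holds no member. The members on chromosome 15 were higher in stable 1 than in the median of the other stable tumours by 2.01 for Cox6c, 1.89 for Ndufb9, 0.90 for Ndufa6 and 0.07 for Atp5g2, against a median of 0.80 for the other genes of the chromosome. On most other chromosomes the members were higher too: the median member difference was 0.91 on chromosome 1 (6 members) and 1.24 on chromosome 9 (5 members), where the other genes had medians of 0.09 and -0.05. The reverse held for Atp5s, the only tested member on chromosome 12 (-0.79). On chromosome 16 the median of 3 members was 0.12, with Atp5j at -0.79. The 3 chromosome 17 genes that fell in stable tumours were at -0.07 to 0.03 in stable 1, and 2 of them were among the 11 of 82 members that were not higher there. The part of these chromosome shifts in the results was not tested.

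**Figure D4:**
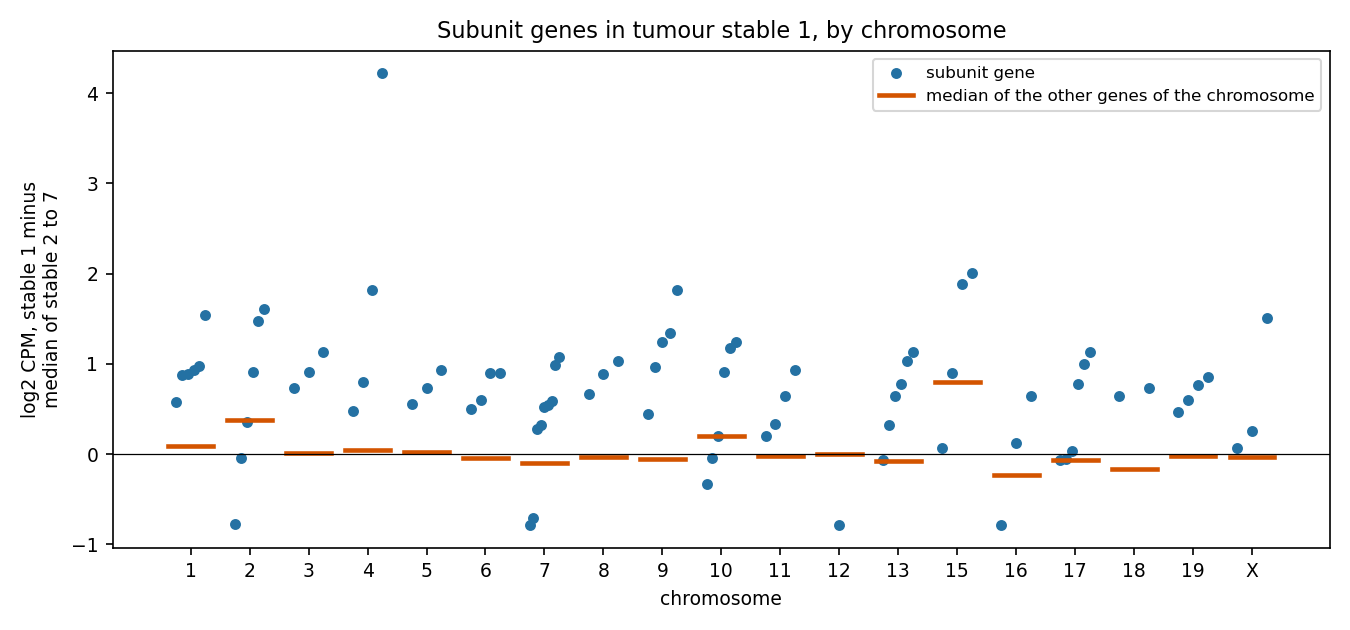
Log2 CPM in tumour stable 1 minus the median of stable 2 to 7, for each subunit gene (points) by chromosome, with the median of the other genes of that chromosome (bars). Members lie above the bar on most chromosomes, and the bar itself is raised on chromosome 15 (0.80) and chromosome 2 (0.38).

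Seen by complex, the level in a tumour was taken as the mean over members of log2 CPM centred on the 21 tumours. Complex I averaged 0.09 ± 0.15 (SD, n = 7) in vehicle, -0.01 ± 0.14 in relapsed and -0.08 ± 0.36 in stable tumours, and complex III averaged 0.04 ± 0.22, 0.05 ± 0.18 and -0.08 ± 0.35 in the same order. The spread over stable tumours was wider than over the others in each of the 5 complexes except II and IV. Complex II averaged 0.06 ± 0.14, 0.055 ± 0.32 and -0.11 ± 0.31, and complex V averaged -0.01 ± 0.12, 0.01 ± 0.09 and 0.00 ± 0.26. In these 4 complexes each difference between groups was smaller than the larger of their SDs. Complex IV averaged -0.07 ± 0.18, 0.29 ± 0.46 and -0.21 ± 0.30, and here the measure mattered: relapse minus vehicle was 0.36 as this mean, 0.01 as the median over members and -0.25 as the log2 of summed CPM. In the sum abundant members weigh most, and in the mean Cox6a2 weighs as much as any other member.

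**Figure D5:**
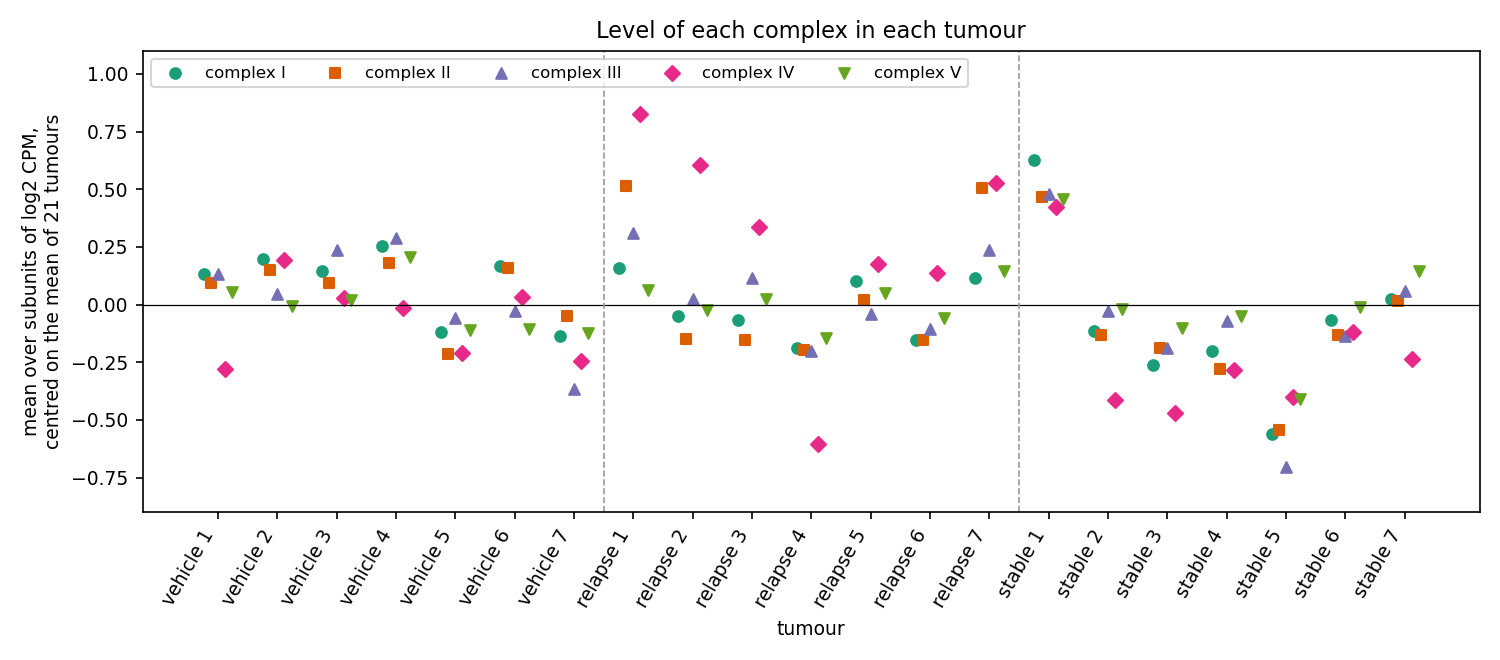
Level of each complex in each of the 21 tumours, as the mean over its tested members of log2 CPM centred on all tumours; dashed lines separate the vehicle, relapse and stable groups. All 5 complexes are high in stable 1 and low in stable 5, and complex II is high in relapse 1 and 7. Complex IV is high in relapse 1, 2 and 7 as well (0.83, 0.60 and 0.53) and is lowest in relapse 4 (-0.61).

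The third comparison set relapsed against stable tumours. No member passed, and neither did any of the 15792 genes (0%, edgeR); 9 members and 751 genes had an unadjusted p under 0.05, and DESeq2 called 6 genes (0.0380%) and 0 members. In no member did the groups not overlap, a pattern seen with relapse above in 0.0253% and below in 0.0570% of all genes. The median log2 difference was 0.03 over members and -0.01 over all genes, and 72 of 82 intervals lay within 2-fold. The members with the lowest p were Cox7a1, Cox8b, Ndufb10, Cox6a2 and Cox4i2. Relapsed tumours were higher by 1.88 for Cox7a1 (95% interval 0.83 to 2.93), 3.08 for Cox8b (1.21 to 4.96), 2.75 for Cox6a2 (0.71 to 4.79), 1.94 for Cox4i2 (0.45 to 3.43) and 0.38 for Ndufb10 (0.13 to 0.64), with edgeR adjusted p of 0.984 to 0.990. For Cox4i2, relapse 2 was at 7.49 CPM, the other relapsed tumours at 0.395 to 2.02 CPM and stable tumours at 0.217 to 0.934 CPM, and the difference was 0.81 without relapse 2. For Ndufb10 all 7 relapsed tumours lay above the stable median. The differences of lowest p in the other direction were -0.70 for Atp5g2, -0.34 for Ndufa6, -1.35 for Ndufs5 and -0.31 for Cox7a2. Atp5g2, a minor copy of the c-ring gene, shares 38.3% of its 50-base stretches with other genes, so its counts are uncertain, and Cox7a2 turned to 0.13 without stable 1.

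A group of 12 core subunits, Ndufv1, Ndufs1, Ndufs7, Sdha to Sdhd, Uqcrfs1, Uqcrc1, Uqcrc2, Atp5a1 and Atp5b, gave 0 calls in each comparison by edgeR and by DESeq2, with 0, 0 and 2 at an unadjusted p under 0.05 in relapse minus vehicle, stable minus vehicle and relapse minus stable. Their log2 fold changes ran from -0.14 (Uqcrc2) to 0.26 (Uqcrfs1, the Rieske protein) in relapse minus vehicle, from -0.33 (Sdhc, a membrane anchor of complex II) to 0.22 (Uqcrfs1) in stable minus vehicle and from -0.01 (Sdhd) to 0.32 (Uqcrc1) in relapse minus stable. No 95% interval reached 1 in either direction, the widest bounds being -0.67 and 0.71. Atp5b, the catalytic beta subunit, was at 313 to 641 CPM in vehicle, 364 to 548 CPM in relapsed and 226 to 911 CPM in stable tumours. The 11 widely made paralogues, such as Cox4i1 and the 3 c-ring genes, gave 0 calls by both tools too (1 at an unadjusted p under 0.05 in each comparison), within -0.49 (Cox7b) to 0.60 (Atp5g1) in relapse and -0.51 (Cox6a1) to 0.57 (Atp5g2) in stable tumours.

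Genes that serve the chain were read from lists. Of 17 complex I assembly genes, Ndufaf1, an early assembly factor, rose in both treated groups, by 0.47 ± 0.11 in relapse (edgeR adjusted p = 0.0123) and 0.58 ± 0.11 in stable tumours (0.00314), from 11.1 to 18.6 CPM in vehicle to 19.3 to 26.4 and 21.3 to 27.1 CPM. Its vehicle and treated ranges did not overlap. All relapsed tumours lay above all vehicle tumours in 1.53% of all genes, and all stable tumours did in 1.56%. Both comparisons share the vehicle tumours. Without vehicle 2, 6 and 7 the relapse call was lost (0.33, adjusted p = 0.0839), and with summing by title code as well both were (0.29, 0.171 and 0.38, 0.134). Ndufaf4 fell in stable tumours (-0.52, 0.0309), a call lost without vehicle 1 or 3 or stable 2, 6 or 7 (0.0509 to 0.0632) and with summing by title code (0.117). Of 31 assembly genes for complexes II to V none passed in any comparison by edgeR, with 3 at an unadjusted p under 0.05 in each comparison with vehicle; DESeq2 called Atpif1 in relapse.

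Of 20 genes for carriers and transport, 3 rose in relapse: Coq8a, which supports ubiquinone synthesis, by 2.03 ± 0.34 (edgeR adjusted p = 0.00195), from 6.17 to 16.4 CPM in vehicle to 14.7 to 82.5 CPM, Ucp3 by 2.63 (0.0447) and Ucp1 by 4.87 (0.0488). The call for Ucp3 was lost in 10 leave-one-out fits (0.0561 to 0.130), all but those without vehicle 3 or 4 or relapse 2 or 4, and that for Ucp1 in 10 (0.0505 to 0.109), all but those without vehicle 3 or relapse 2, 4 or 6. Neither passed without vehicle 2, 6 and 7 (2.14, adjusted p = 0.207, and 4.12, 0.212). In stable tumours Ucp3 rose (2.71, 0.0340), Slc25a4, the ADP/ATP carrier of heart and muscle, fell (-0.99, 0.0176) and Coq5 fell (-0.37, 0.0480). Slc25a4 lost its call without vehicle 2 or 6 (0.0512 to 0.0538), Ucp3 without vehicle 1, 2, 5, 6 or 7 or stable 2, 3 or 7 (0.0504 to 0.0765) and Coq5 without any tumour but vehicle 5 and stable 1 (0.0694 to 0.0972). The differences without vehicle 2, 6 and 7 were -0.18 for Slc25a4 (adjusted p = 0.518), 2.21 for Ucp3 (0.178) and -0.47 for Coq5 (0.0657), and Slc25a4 was at -0.20 with summing as well (0.547). Of 21 genes of the TCA cycle and pyruvate entry, Pdk4, a kinase that shuts pyruvate dehydrogenase off, rose in relapse (1.94 ± 0.48, 0.0143), and Ogdh fell in stable tumours (-0.55, 0.0234), a call lost without vehicle 2 or 6 (0.0543 to 0.0545). For Ogdh the difference was -0.36 without vehicle 2, 6 and 7 (adjusted p = 0.231), -0.53 with summing by title code (0.185) and -0.36 with both (0.407).

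Of 18 regulators of mitochondrial biogenesis, 0 passed in relapse by edgeR, with 1 at an unadjusted p under 0.05 and 1 called by DESeq2 (Twnk), and Ppard fell in stable tumours (-0.55, edgeR adjusted p = 0.0429), a call lost in 9 leave-one-out fits (0.05002 to 0.10), all but those without vehicle 1, 2, 4 or 6 or stable 4. Ppargc1a, Ppargc1b, Esrra, Nrf1, Gabpa and Tfam and the electron carrier Cycs did not pass in any comparison by either tool, with 0 at an unadjusted p under 0.05. Their log2 fold changes ran from -0.10 (Nrf1) to 0.63 (Ppargc1a) in relapse and from -0.65 (Ppargc1b) to 0.21 (Tfam) in stable tumours.

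Single tumours set some values. Cox5b (chr1:36691487-36693388) was at 299 CPM in vehicle 7 and at 31.0 to 67.7 CPM in vehicle 1 to 6; its log2 difference in relapse was -0.88 (edgeR adjusted p = 0.203) with vehicle 7 and -0.03 without it. Cox6c (chr15:35931976-35938246) was at 214, 188 and 139 CPM in vehicle 2, 7 and 6, at 62.5 to 94.5 CPM in vehicle 1, 3, 4 and 5 and at 247 CPM in stable 1. Vehicle 2 and 6 had median centred log2 levels of 0.43 and 0.20 over the genes of chromosome 15, and vehicle 7 had -0.03.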

How the data were processed

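RNA from snap-frozen mammary tumours was made into stranded mRNA libraries and sequenced as single-end reads of 50 bases, per the labels' protocols. The submitters' processing notes name STAR 2.5.2a, SAMtools 1.3.1, Picard 2.9.2, edgeR and the mm10 build, with no role given, and no source used here says how the authors handled strand and multiply mapped reads. The authors deposited 1 table of raw counts per gene for the 21 tumours. Of its 24028 rows, 10202 held an extra leading cell with the row number, so counts were read from the end of each row, and 14 rows had no symbol.

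Genes with too few counts were dropped by edgeR's filterByExpr (edgeR 4.0.16, R 4.3.3), library sizes were scaled by TMM, and all 21 tumours were fitted in 1 quasi-likelihood model with 3 contrasts. P-values were adjusted over the 15792 tested genes by the Benjamini-Hochberg method, and a gene passed at an adjusted p under 0.05. All adjusted p-values in the text are from this test unless another is named. CPM is on the TMM scale, log2 CPM adds a prior count of 2, and RPKM divides CPM by the length of the gene model given with the counts. The fit was tested on simulated data.

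Members were named if called, or of lowest p in a direction, and in addition all paralogue pairs, a core set of subunits and up to 3 genes of each of 6 pathway lists were named; 1 gene that the rule names is not reported here. The members, the lists and this rule were chosen with earlier results of these data known. Of the deposited counts, totals per tumour are in the report, and intervals cover the spread between tumours only. Alternatives were other scalings, DESeq2 1.42.0, limma 3.58.1 with voom, no filter, 2 groups only, counts summed per title code, and leaving tumours out. The closing section gives their effect. The replicate numbers did not pair the tumours. Shared 50-base stretches were counted in the GENCODE transcripts of GRCm38.

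Markers of 11 cell types were summed as CPM. Neutrophil, macrophage, T and NK cell, fibroblast, endothelial and erythroid lists are given by their counts in the closing section.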

Additional observations from a re-analysis of the deposited data

Results flagged for a closer look

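The named members and the level of each complex were checked for outlying tumours. In 78 groups of 7 tumours, 9 held a tumour whose distance from its nearest neighbour was a large part of the range of the group. Chance gives about 1 in 20 for genes chosen beforehand. These genes were named from the same data and no share over all genes was taken, so no excess can be read from the count. Most of the 9 involve single complex IV or complex V genes. Cox5b, a structural subunit of complex IV, was at 299.2 CPM in vehicle 7 with the next vehicle tumour at 67.71 CPM. Cox6c was at 247.2 CPM in stable 1 with the next stable tumour at 75.78 CPM, and the level of complex IV as a whole in stable 1 was 0.4217 (mean centred log2 CPM) with the next at -0.1179. Cox6a2 was at 0 CPM in relapse 4, where the next relapsed tumour was at 2.273 CPM.

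Ndufs5 was at 5.03 CPM in relapse 5 and at 0.517 CPM or less in the other relapsed tumours. Atp5g1, a c-ring gene, was at 8.014 CPM in relapse 3 (next 5.083 CPM) and, as the lowest stable tumour, at 1.453 CPM in stable 5 (next 4.474 CPM). Atp5sl was at 20.93 CPM in vehicle 7 (next 13.95 CPM) and at 23.38 CPM in stable 1 (next 17.16 CPM).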

How the results depend on the processing

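The number of members that passed in relapse minus vehicle (6) was 3 with voom sample weights, 2 with title codes as a random effect, 0 with counts summed per code, 3 with only the 2 groups fitted, 2 without vehicle 2, 6 and 7, 1 with that and summing, and 3 to 7 with 1 tumour left out. In stable minus vehicle (6) it was 15 with voom sample weights, 1 with summing, 3 without vehicle 2, 6 and 7, 0 with both, and 4 to 19 with 1 tumour left out. The genes called in all in relapse minus vehicle fell from 1772 to 527 without those 3 tumours and to 955 with summing. With the replicate number as a block the members called were 2 and 6 and the genes called 987 and 1251. Numbers were a name only: same-numbered tumours correlated at -0.26 to 0.36, 3 of 21 pairs over 0.1, and 1 of 21 tumours correlated best with its own number. In relapse minus stable 0 members passed under every alternative run.

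Directions turned for differences near 0. Cox8a in relapse minus vehicle was -0.0424 with voom sample weights, -0.0554 without vehicle 2, 6 and 7, -0.0483 with that and summing, and -0.0403 to 0.149 with 1 tumour left out (below 0 without relapse 3 or vehicle 7). Cox5b was 0.0070 without vehicle 2, 6 and 7 with summing, and Ndufs5 was -0.214 to 1.37 with 1 tumour left out (below 0 without relapse 5). Cox6c in stable minus vehicle was 0.159 without vehicle 2, 6 and 7 and 0.0894 with summing as well. In relapse minus stable, voom sample weights gave 0.0789 for Ndufs5 and 0.0271 for Cox7a2, which was -0.432 to 0.129 with 1 tumour left out (above 0 without stable 1). Complex IV as the log2 of summed CPM gave -0.25 in relapse minus vehicle and 0.0659 in relapse minus stable, against 0.36 and 0.50 as a mean; the median over members was chosen after seeing the data. The causes were not tested. Low counts limit Cox6a2, which had 0 counts in 3 vehicle tumours, so its fold change depends on the prior count.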

Other observations

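By edgeR's test 6 of 10 basal and myoepithelial markers fell in relapse and 6 of 10 in stable tumours, with medians of -3.37 and -3.47 on the log2 scale. Without vehicle 2, 6 and 7 the counts were 0 and 1, with medians of -0.01 and -0.34. Of 11 luminal markers 1 rose and 1 fell in relapse, and 1 rose in stable tumours. Of 8 fibroblast markers 2 rose in relapse, and 2 rose and 1 fell in stable tumours. Of 5 T and NK cell markers 1 fell in relapse, and 0 passed in stable tumours (2 at an unadjusted p under 0.05, and Cd4 by DESeq2). None of 5 neutrophil, 6 macrophage, 5 endothelial or 3 erythroid markers passed in either comparison by edgeR or DESeq2; at an unadjusted p under 0.05 there was 1 macrophage marker in each comparison and 1 erythroid marker in stable tumours. Elovl3, a fatty acid elongase of brown fat, fell in stable tumours by 6.61 on the log2 scale (edgeR adjusted p = 0.0186). In relapse minus stable 0 markers passed in any list by edgeR, and DESeq2 called Myh7; 8 of 18 skeletal muscle, 3 of 3 erythroid, 2 of 5 brown adipocyte and 1 of 6 macrophage markers had an unadjusted p under 0.05.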
